A study of Mus musculus with 12 samples.

Results

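The study altered the Alkbh5 gene in 2 ways, which are compared here in E14TG2a cells, a mouse embryonic stem cell line: Alkbh5-ΔcIDR, labelled del-cIDR, in which a part of the protein named as an intrinsically disordered region is removed, and Alkbh5 KO, in which the gene is knocked out. The comparison uses 4 of the 12 samples of the series, 2 replicate m6A immunoprecipitations of each genotype, and 2 wild-type (WT) immunoprecipitations are shown beside them. All 3 groups were grown in the same medium with LIF and 2 kinase inhibitors, RNA was taken from the chromatin-associated fraction and ribosomal RNA was depleted. The labels do not say whether a group is 1 clone, and the 2 KO columns of the deposited tables share the name KO6, which leaves it unstated whether they are 1 line. The ΔcIDR columns are named KI and were assigned by elimination. No column name tells an immunoprecipitate from an input, and the tables' own name, m6A matrices, is why all were taken as immunoprecipitates.

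N6-methyladenosine (m6A) is the most common internal modification of messenger RNA and is also found on nascent and repeat-derived RNA that stays on chromatin. ALKBH5 is a nuclear enzyme that removes it. Intrinsically disordered regions are protein stretches without a fixed fold, and the series asks how they shape where demethylases act. Setting ΔcIDR against KO asks how the loss of that region differs from the loss of the gene.

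The 4 libraries held 13611019 to 15145206 reads in 74299 genomic intervals of the GRCm39 assembly. With 0 columns read as input, m6A, the amount of RNA and the number of copies of a locus in the genome cannot be told apart in any value below, nor can fewer cells with an RNA and less of it per cell. The labels do not say that replicates came from separate cultures, so p-values measure only the spread between these samples, which may be technical. The tables name no genes, so Alkbh5 itself and markers of stem cells were not checked here.

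Total interval signal was higher in ΔcIDR on the deposited scale, which sets the reads of an m6A-carrying spike-in RNA equal in all libraries. It came to 2428466 and 2433411 in ΔcIDR, 1449896 and 992881 in KO, and 1540414 and 1651054 in WT. Both ΔcIDR libraries lay above both KO libraries, and the difference was 1.02 ± 0.27 (SE, n = 2 per group) on the log2 scale, 2.03-fold. The spike-in had 814 and 849 reads in ΔcIDR and 1379 and 1870 in KO. On a scale set by ERCC RNAs the difference was -0.040 ± 0.067 (SE), on that of an unmodified spike-in -0.38 ± 0.34 (SE), and on that of repeat reads outside the intervals 0.31 ± 0.04 (SE). The direction of the total therefore changed with the scale, and 2 libraries against 2 allow no exact permutation p below 0.333. For this reason features are described below mainly after each library was centred on its median. This removes such a common shift at strong intervals. At weak ones the 0.5 added to each signal shrinks the shift, so centring takes off too much there.

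Among 37759 intervals with a mean signal of at least 1, limma called 17846 higher in ΔcIDR (47.3%) and 592 lower (1.57%) on the deposited scale, at a Benjamini-Hochberg adjusted p of 0.05. After centring it called 6654 higher (17.6%) and 3745 lower (9.92%). All of the 6654 were also called higher on the deposited scale, and 590 of the 3745 were also called lower there. Higher calls made up 96.8% of calls on the deposited scale, 64.0% after centring, 33.0% on the ERCC scale, 70.1% on the scale of repeats outside the intervals, 53.0% in edgeR with TMM factors and 56.4% in DESeq2. edgeR shared 5165 of the 6654 centred higher calls and 3549 of the 3745 lower ones. At least a 2-fold difference was reached by 2817 of the higher and 2462 of the lower calls, and at least a 4-fold one by 370 and 288. The centred count of 10399 dropped to 4928 without KO replicate 1 and to 4314 without KO replicate 2, and the deposited-scale count of 18438 to 8380 and 11056 without ΔcIDR replicates 1 and 2.

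Across the tested intervals, centred log2 signal correlated between a ΔcIDR and a KO library with Pearson's r of 0.931 to 0.940. The replicates correlated with 0.974 in ΔcIDR and 0.983 in KO, a ΔcIDR and a WT library with 0.968 to 0.977, and a KO and a WT library with 0.948 to 0.955. These are descriptions over intervals, which are not independent and differ widely in signal. The ΔcIDR libraries thus resembled the WT libraries about as closely as each other, and the KO libraries less so. The median absolute difference between the ΔcIDR and KO means was 0.46. Median gaps between the replicates were 0.31 in ΔcIDR, 0.21 in KO and 0.28 in WT. These gaps are between single libraries and not between means, so they are not the same measure.

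Intervals made of ERVL were lower in ΔcIDR than in KO. ERVL is the family of endogenous retroviruses that includes MERVL, which is expressed at the 2-cell stage of the mouse embryo and in rare embryonic stem cells. After centring, 983 of 1786 ERVL intervals were called lower and 22 higher, and 94.4% of them lay below the median change of all intervals. On the deposited scale the counts were 119 lower and 85 higher. Their share of interval signal was 0.621% and 0.689% in ΔcIDR, 1.27% and 1.35% in KO, and 0.831% and 0.724% in WT. The 2 KO libraries stood apart from the 4 others, and the ΔcIDR and WT values were close. The median ERVL change was -1.10 ± 0.17 (SE, n = 2 per group) relative to all intervals on the log2 scale, a 2.14-fold difference. The unadjusted median difference was -0.31 on the deposited scale, -1.25 on the ERCC scale, -0.95 on the scale of repeats outside the intervals, -1.23 in edgeR and -1.22 in DESeq2, so it kept its direction on these scales. ERVL made up 4.73% of the tested intervals and 26.2% of those called lower.

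**Figure D1:**
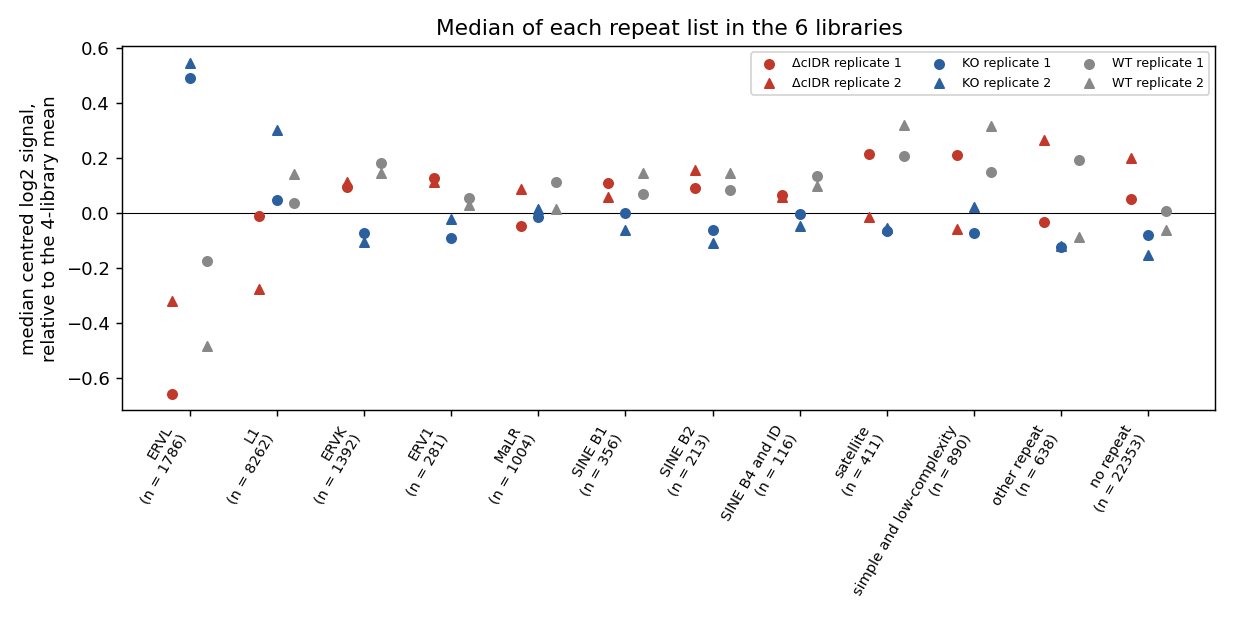
Median centred log2 signal (y axis) of the intervals of each repeat list with at least 100 tested intervals (x axis, with the number tested), each interval set to its mean over the 4 ΔcIDR and KO libraries. Red, blue and grey points are single ΔcIDR, KO and WT libraries, with circles for replicate 1 and triangles for replicate 2. The ERVL medians are 0.49 and 0.55 in KO against -0.66 and -0.32 in ΔcIDR, and the other lists lie closer to 0.

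The ERVL difference varied with the length of the copy an interval lay in. On copies of 5 kb or longer, 767 of 1127 intervals were called lower and 1 higher, with a relative change of -1.17 ± 0.19 (SE), and on the deposited scale 89 were lower and 9 higher. On copies of 1 to 5 kb the counts were 117 lower and 0 higher of 216, and on copies under 1 kb 99 lower and 21 higher of 443. It also varied with signal. With all tested intervals split into 4 equal classes of mean signal, the median change of short copies was -0.91 in the lowest class (269 intervals) and 0.21 in the highest (21 intervals), where 7 were called higher and 2 lower. That of long copies lay between -1.21 and -1.15 in the 3 lower classes and at -0.26 in the highest (12 intervals, 2 called lower and 0 higher). In the class below the highest, long copies had 294 of 325 intervals called lower and short copies 9 of 50. Whether the difference between length classes is larger than replicate error was not tested.

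Single copies were then followed in the repeat table, which counts reads over each annotated copy. Most long ERVL copies overlap an interval, so this recounts the same libraries at largely the same sites and is not separate support. Of 616 ERVL copies of 5 kb or longer, 609 had a mean of at least 20 reads. In 596 of them (97.9%) both ΔcIDR libraries lay below both KO libraries in RPM, reads scaled to the total repeat reads of the library, and in 3 above. Over all repeat loci with that many reads, 32.8% were lower in this sense and 26.5% higher. The median copy differed by -1.12 on the log2 scale, with 1 copy in 10 below -1.46 and 1 in 10 above -0.74. Summed over all such copies, ERVL took 3289 and 3793 RPM in ΔcIDR, 6705 and 7485 in KO, and 4110 and 3517 in WT. The ΔcIDR and KO sums did not overlap, and KO was 2.01-fold higher, with an SE of 0.13 on the log2 scale (n = 2 per group). On the deposited scale the summed difference was -0.27 ± 0.25 (SE), near its error. These copies belong to 1 family and may share sequence, which was not compared. How reads with several matches were counted is not given in the sources used here, so their values cannot be taken as independent.

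The copy closest to the median difference, on chromosome 7 (chr7:127331638-127337088), had 92 and 67 reads in ΔcIDR, 249 and 160 in KO, and 94 and 59 in WT. The copy lowest in ΔcIDR against KO was on chromosome 6 (chr6:69067586-69072925), with 96 and 150 reads against 636 and 609 in KO. Repeat loci of chromosome 6 outside the intervals had a relative change of -0.51 as a whole. The copies with the most reads departed from this. The most-read copy (chr13:65825739-65831074) had 3003 and 3100 reads in ΔcIDR and 3815 and 3886 in KO, -0.12 in log2 RPM. The 4 next differed by 0.0042, 0.092, -1.40 and -0.45, so 3 of the 5 most-read copies lay near 0. The one at -1.40 is on chromosome 8, whose repeat loci outside the intervals had a relative change of -0.53 as a whole. A copy on chromosome 3 (chr3:28938327-28943634) went the other way, with 175 and 224 reads in ΔcIDR, 114 and 125 in KO and 112 and 100 in WT. The single interval on a long ERVL copy that was called higher lies in it, and that call was lost without KO replicate 2.

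**Figure D2:**
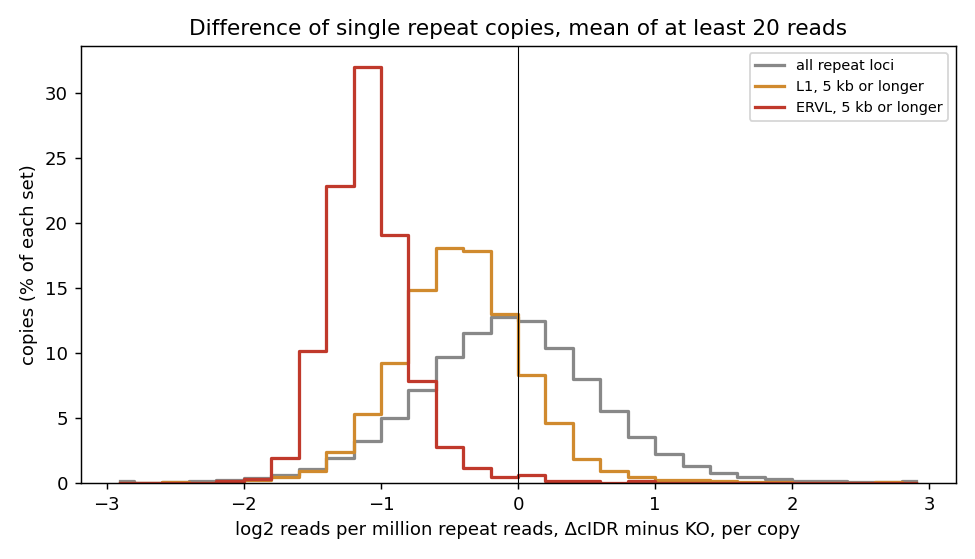
Difference between ΔcIDR and KO in log2 RPM of repeat reads (x axis) of single repeat copies with a mean of at least 20 reads, as the percent of each set of copies in bins (y axis). The 609 ERVL copies of 5 kb or longer (red) centre on -1.12, the 4911 LINE-1 copies of 5 kb or longer (orange) on -0.42, and all 234605 repeat loci (grey) near 0.

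LINE-1 (L1) intervals leaned the same way but less firmly. L1 is a retrotransposon family with copies that still move in mice. After centring, 746 of 8262 L1 intervals were called lower and 243 higher, a share of lower calls (9.03%) below that over all intervals. Their library medians, with each interval set to its mean over the ΔcIDR and KO libraries, were -0.01 and -0.28 in ΔcIDR and 0.05 and 0.30 in KO. In WT they were 0.04 and 0.14. The first ΔcIDR and KO libraries thus nearly met. The relative change was -0.40 ± 0.18 (SE, n = 2 per group), and -0.23 without ΔcIDR replicate 2. The unadjusted median was 0.39 on the deposited scale, where its direction turned, and -0.51 on the ERCC scale. Copies of 5 kb or longer took 17221 and 11830 RPM of repeat reads in ΔcIDR and 15748 and 20639 in KO, which overlap.

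ERV1, another retrovirus family, held the opposite extreme within a narrow class of copies. Over all 281 ERV1 intervals, 62 were called higher in ΔcIDR and 29 lower after centring, with a relative change of 0.06 ± 0.04 (SE). The 28 intervals on copies of 2.0 to 2.3 kb stood apart: 26 were called higher and 0 lower, over 16 chromosomes, with a relative change of 2.03. This length range was set freely after its values were seen, so it carries no test. It is wider than the nearest of 61 length bins scanned in 5 families, ERV1 copies of 2000 to 2250 bp. The library medians of the 28 intervals were 1.08 and 1.36 in ΔcIDR, -1.32 and -0.88 in KO, and -0.05 and 0.04 in WT. Each interval was set to its mean over the ΔcIDR and KO libraries, so any difference puts these genotypes on opposite sides of 0. WT lay between them. The unadjusted median difference was 2.81 on the deposited scale, 2.06 on the ERCC scale, 2.32 on the scale of repeats outside the intervals, 2.57 in edgeR and 2.59 in DESeq2.

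In the repeat table, 19 ERV1 copies of that length overlapped an interval and had a mean of at least 20 reads. In all 19 both ΔcIDR libraries lay above both KO libraries in RPM, with a median difference of 2.74 on the log2 scale. Over all repeat loci with that many reads, 26.5% were higher in this sense and 32.8% lower. The length range was chosen after intervals on such copies were seen. The 19 copies thus recount the same libraries at largely the same sites and are not separate support. Of 22 copies of the same length outside the intervals, 10 were higher in this sense and 9 lower, with a median of 0.12. How the intervals were defined is not given in the sources used here, so overlap with one may not be independent of signal. Together the 407 annotated copies took 943 and 922 RPM in ΔcIDR, 263 and 269 in KO, and 527 and 563 in WT, 3.51-fold between ΔcIDR and KO. Only 41 of them had a mean of at least 20 reads, and the sum rests in large part on a few copies, among them those on chromosomes 13 and 17 given below. Of the 19 copies, 6 are 2241 to 2243 bp long, on chromosomes 2, 13, 15, 18, 19 and X, so they may be alike in sequence and share reads. The copy on chromosome 13 (chr13:80850828-80853069) had 4083 and 4049 reads in ΔcIDR, 647 and 630 in KO, and 1695 and 1835 in WT. That on chromosome 18 (chr18:9594533-9596774) had 576 and 616, 62 and 88, and 221 and 211 reads in the same order. The copy with the largest difference, on chromosome 17 (chr17:6844554-6846599), had 3969 and 3772 reads in ΔcIDR against 186 and 169 in KO and 2351 and 2643 in WT.

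**Figure D3:**
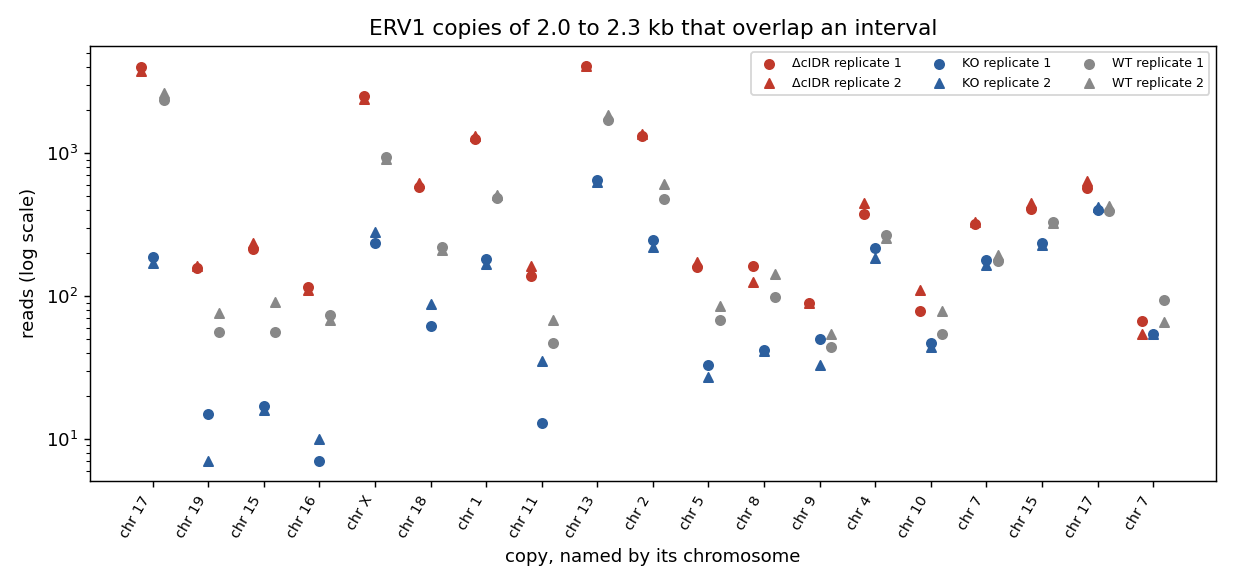
Reads (y axis, log scale) of the 19 ERV1 copies of 2.0 to 2.3 kb that overlap an interval, each named by its chromosome and ordered by its difference (x axis). Points are single libraries, with circles for replicate 1 and triangles for replicate 2. The first copy, on chromosome 17, has 3969 and 3772 reads in ΔcIDR (red), 186 and 169 in KO (blue) and 2351 and 2643 in WT (grey).

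The other repeat lists moved little as groups. ERVK, the family of IAP and ETn elements, had 261 of 1392 intervals called higher and 103 lower, at a relative change of 0.11 ± 0.02 (SE), with an unadjusted median below 0 on the ERCC scale. These shares, 18.8% and 7.40%, are near the 17.6% and 9.92% over all intervals, as are the shares of higher calls in B1 (17.7%) and B2 (18.3%). ERVK copies of 5 kb or longer outside the intervals took 3040 and 3427 RPM in ΔcIDR, 2494 and 2517 in KO, and 3064 and 2776 in WT, 1.29-fold between ΔcIDR and KO. Over all loci of that length the difference was 1.21-fold. The 46 intervals on such copies had a relative change of -0.0018 ± 0.13 (SE), with 7 called higher and 4 lower. MaLR, a family of old LTR retrotransposons, had 123 higher and 95 lower of 1004. The short interspersed elements had 63 higher and 24 lower of 356 (B1), 39 and 13 of 213 (B2) and 19 and 15 of 116 (B4 and ID). Satellites had 79 and 31 of 411, and simple and low-complexity repeats 125 and 69 of 890. The smaller sets were DNA transposons with 3 and 2 of 28, old families with 0 and 2 of 16, structural RNA with 1 and 0 of 13 and other repeats with 132 and 32 of 638. Relative changes of these lists, apart from the 28 DNA transposon intervals at -0.32, lay between -0.08 and 0.18.

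Intervals in which no single repeat family covered at least 50% of the length held most of the higher calls. Of 22353 such intervals, 5482 were called higher and 1601 lower, at a relative change of 0.17 ± 0.08 (SE). Their unadjusted median difference was 0.24 after centring, 0.96 on the deposited scale and -0.05 on the ERCC scale, where its direction turned. They made up 59.2% of tested intervals and 82.4% of higher calls. Longer ones were called higher more often, 563 of 1586 at 1000 bp or longer (35.5%) against 3205 of 14965 under 500 bp (21.4%). Strong intervals leaned the same way: in the highest of the 4 signal classes, 3220 of 9440 intervals of any kind were called higher and 430 lower, against 306 and 949 in the lowest class. The relative change was 0.24 in the highest and -0.37 in the lowest class. The part of read depth in these shares, and that of the 0.5 added to each signal, was not tested.

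The interval with the most signal, on chromosome 19 (chr19:5851020-5852658), was higher in ΔcIDR. It had 280912 and 247848 reads in ΔcIDR, 162497 and 167430 in KO, and 229659 and 272225 in WT. It took 1.94% and 1.64% of interval signal in ΔcIDR, 1.11% and 1.23% in KO and 1.74% and 2.03% in WT, with KO below both others. The centred difference was 0.91 ± 0.19 (SE), 1.88-fold, and its adjusted p in limma was 0.00267. The next largest gain in signal, on chromosome 12 (chr12:110660487-110660934), had 48324 and 52109 reads in ΔcIDR against 28912 and 24283 in KO, 2.22-fold. The largest loss of signal was at a satellite on chromosome Y (chrY:90822361-90824123), with 2205 and 1875 reads in ΔcIDR, 11625 and 13346 in KO, and 3080 and 4458 in WT, a log2 difference of -2.38 ± 0.16 (SE).

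The 10 largest centred gains and the 10 largest losses were taken among called intervals whose ΔcIDR and KO libraries did not overlap. Many were nearly silent in 1 genotype, but not all. An ERV1 interval on chromosome 17 (chr17:6844428-6846145) had 3411 and 3173 reads in ΔcIDR and still 155 and 149 in KO. The largest gain lay on chromosome 13 (chr13:25386008-25386409), outside repeats, with 464 and 441 reads in ΔcIDR, 4 and 9 in KO, and 195 and 179 in WT. Its log2 difference was 5.48 ± 0.27 (SE), 44.6-fold, and the limma adjusted p 2.15e-08. An ERVK copy on chromosome 9 (chr9:13668927-13669139) had 2531 and 3261 reads in ΔcIDR, 66 and 86 in KO, and 971 and 817 in WT, 41.6-fold. In both, the WT libraries lay between the mutants. Of the 10 gains, 5 were on ERVK copies of 627 to 702 bp and 2 on ERV1 copies of 2045 and 2241 bp. ERVK copies of 600 to 750 bp as a whole did not behave so, with 33 of 164 intervals called higher and 9 lower. A gain on chromosome 11 (chr11:94410697-94410907) differed in that WT had 1 and 3 reads, next to 154 and 101 in ΔcIDR and 6 and 2 in KO.

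Losses were mostly sites read in KO and nearly silent in ΔcIDR. On chromosome 2 (chr2:27656206-27656458) there were 0 and 1 reads in ΔcIDR, 350 and 357 in KO, and 2 and 3 in WT. A second interval close to it (chr2:27649259-27649462) had 4 and 2, 189 and 148, and 5 and 5 reads in the same order. An L1 fragment on chromosome 3 (chr3:91049922-91050320) had 6 and 6 reads in ΔcIDR, 360 and 376 in KO and 8 and 6 in WT, which is -5.14 ± 0.33 (SE) in log2 (limma, adjusted p 2.21e-07). At these 3 sites the KO libraries alone held the reads. At an ERVK copy on chromosome 4 (chr4:15341141-15341347) both ΔcIDR libraries had 0 reads and KO had 60 and 57, at least 40.9-fold higher in KO against a floor of 3 reads over the group. WT kept more reads at 3 of the losses, all between the mutants. At an interval on chromosome 15 (chr15:102870383-102870732) there were 10 and 4 reads in ΔcIDR, 215 and 195 in KO, and 41 and 69 in WT. The others were an ERVK copy on chromosome 6 (chr6:19423070-19423420) with 9 and 10 reads in ΔcIDR, 344 and 238 in KO and 100 and 69 in WT, and a short ERVL copy on chromosome 10 (chr10:108278359-108278559) with 6 and 11, 180 and 195, and 79 and 51.

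**Figure D4:**
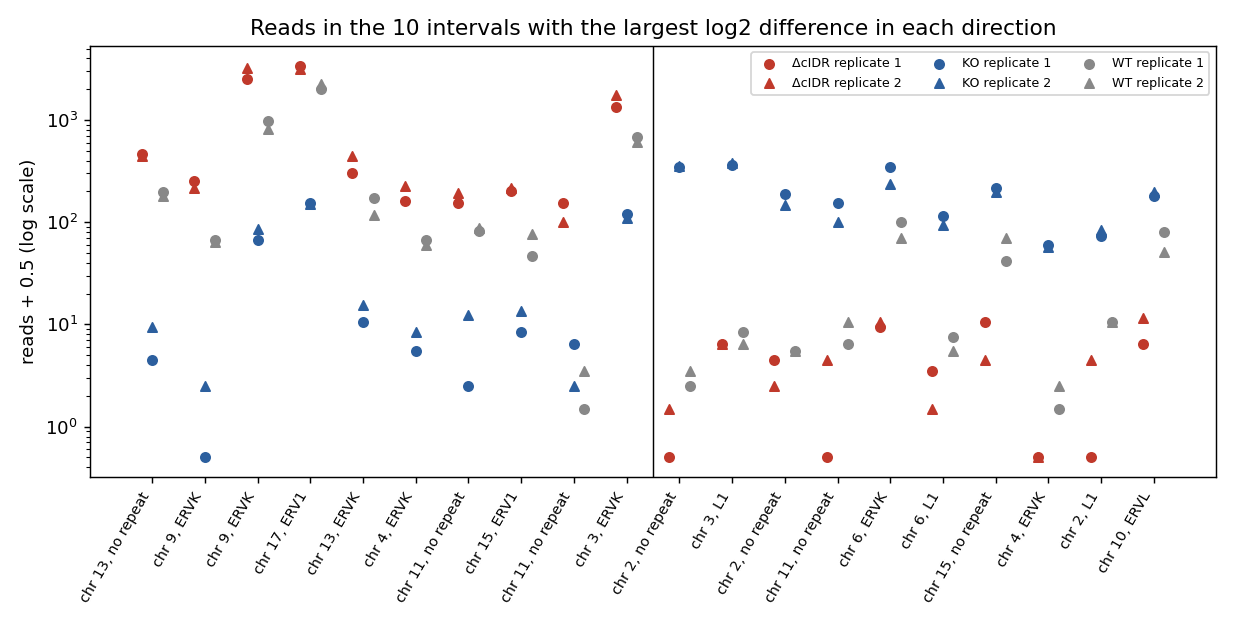
Reads plus 0.5 (y axis, log scale) in the 10 intervals with the largest centred log2 gain in ΔcIDR over KO (left of the line) and the 10 with the largest loss (right), named by chromosome and repeat list (x axis). Points are single libraries, with circles for replicate 1 and triangles for replicate 2. In the first interval ΔcIDR (red) has 464 and 441 reads and KO (blue) 4 and 9.

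The repeats around these sites mostly lay on the same side. For each interval, reads were summed over repeat loci that overlap no interval and lie 1 to 25 kb away. Beside the 10 gains, these flanks were higher in both ΔcIDR libraries than in both KO libraries in 9 cases, and beside the 9 losses with a mean of at least 20 flanking reads they were lower in 9. Over all 32129 intervals with such flanks, 42.3% were higher and 39.2% lower in this sense. Intervals close to each other share flanking loci, as do the neighbouring losses on chromosome 2, so none of these counts is of independent cases. Beside the chromosome 3 L1 fragment the flanks held 40 and 17 reads in ΔcIDR, 1580 and 1592 in KO, and 35 and 27 in WT. Beside the chromosome 13 gain they held 107 and 123 in ΔcIDR, 5 and 7 in KO, and 65 and 77 in WT. The flanks of the chromosome 11 gain at 94410697 did not follow, with 52 and 47 reads in ΔcIDR and 71 and 50 in KO. Among all intervals called higher, 78.1% of 6522 had higher flanks, and among those called lower, 82.2% of 3072 had lower flanks. Of 22535 intervals without a call, 36.5% had higher and 41.9% lower flanks. The differences at called intervals thus reached into sequence outside the intervals, and whether it was the level of the transcript that differed was not tested.

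Called intervals also lay in runs. Taking called neighbours within 50 kb of each other in 1 direction, 542 runs of at least 3 intervals were higher and held 31.5% of the higher calls, and 231 were lower and held 24.3% of the lower calls. How many such runs the spacing of the tested intervals alone would give was not tested. Chromosomes 6 and 8, which differed as wholes (below), held 37 and 31 of the lower runs and 3 and 10 of the higher ones. The longest run of gains was 21 intervals assigned to no repeat family, over 100.7 kb of chromosome 2 (chr2:76537139-76637868). It summed to a deposited signal of 1828 and 1862 in ΔcIDR, 364 and 263 in KO, and 748 and 772 in WT. Its 21 centred differences ran from 1.22 to 2.35. A run of 15 intervals on chromosome 10 (chr10:78857731-78898517), 14 of them L1, summed to 922 and 786 in ΔcIDR, 321 and 243 in KO and 623 and 672 in WT. The strongest of the 8 longest runs of gains, 11 intervals on chromosome 4 (chr4:123304885-123370009), summed to 10864 and 11824, 3753 and 2811, and 7287 and 6804 in the same order. On the deposited scale WT lay between the mutants in all 3 runs. As a share of interval signal this held for the chromosome 2 run, with 0.0753% and 0.0765% in ΔcIDR, 0.0251% and 0.0265% in KO, and 0.0485% and 0.0467% in WT. The chromosome 10 run took 0.0380% and 0.0323% in ΔcIDR and 0.0404% and 0.0407% in WT, and the chromosome 4 run 0.447% and 0.486% against 0.473% and 0.412%, so WT was highest in the first and overlapped ΔcIDR in the second.

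Among runs of losses the longest was on chromosome 18 (chr18:37855241-37876090), 13 intervals assigned to no repeat family with centred differences from -1.56 to -0.62. It summed to 322 and 289 in ΔcIDR, 531 and 380 in KO, and 288 and 328 in WT on the deposited scale, where KO lay above both other groups. A run of 11 intervals on chromosome Y (chrY:90734108-90768566) summed to 240 and 207 in ΔcIDR, 545 and 397 in KO, and 348 and 363 in WT. A run of 9 on chromosome 6 (chr6:60301648-60339406) had centred differences from -2.97 to -1.16.

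Signal summed over whole repeat families shifted less. On the deposited scale 8 of 58 families were called higher (13.8%) and 0 lower (0.0%), with 0 lower also at an unadjusted limma p under 0.05. The 8 calls fell to 0 without either WT or either ΔcIDR library, and rose to 54 and 38 without KO replicates 1 and 2. After centring, 8 were higher (13.8%) and 20 lower (34.5%), and 16 and 18 in all were called without KO replicates 1 and 2. ERVL was lower by -0.33 ± 0.07 (SE), adjusted p 5.40e-05 in limma, and by -0.17 over loci that overlap no interval. On the deposited scale the direction of the ERVL family turned, at 0.42 ± 0.30 (SE), with an adjusted p of 0.206 in limma. After centring, L1 was at -0.17 ± 0.08 (SE) and did not pass, at an adjusted p of 0.0714 in limma. Among the lower families were LINE/RTE-X at -0.32 and DNA/Crypton at -0.65, while the old families SINE/MIR (-0.09) and LINE/L2 (-0.06) did not pass and SINE/tRNA was higher by 0.34. The srpRNA family, copies of the 7SL RNA of the signal recognition particle, was higher by 0.44 ± 0.06 (SE), and snRNA, the RNAs of the spliceosome, by 0.18 ± 0.06 (SE). The family named Satellite/Y-chromosome was higher by 0.48 but took 63.1% of its reads from 1 locus, and over loci outside the intervals it was at -0.18.

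Repeat loci that overlap no interval gave a view apart from called sites. Of 218348 such loci with a mean of at least 20 reads, limma called 22178 higher (10.2%) and 17839 lower (8.17%) after centring. Without KO replicates 1 and 2 the calls came to 17803 and 18052, and without ΔcIDR replicate 1 to 23700, of 40017. ERVL loci here, almost all short, had 499 of 5073 called higher and 609 lower, a relative change of -0.09. Simple and low-complexity repeats were called higher most often, 4524 of 26693 against 1490 lower, at 0.17. Relative changes of the other lists lay between -0.09 and 0.11. The largest single losses included an ERVK locus on chromosome 3 (chr3:91062585-91062778) with 0 and 0 reads in ΔcIDR, 101 and 116 in KO and 4 and 4 in WT, which lies beside the L1 fragment above. Among the gains, an ERVK copy on chromosome 13 (chr13:57113543-57118693) had 83 and 61 reads in ΔcIDR, 0 and 0 in KO, and 12 and 24 in WT.

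Whole chromosomes differed as well. On chromosome 6, 429 of 1953 intervals were called lower and 99 higher, on chromosome 8 457 of 1997 and 136, and on the stretch from 8 to 56 Mb of chromosome 11 134 of 586 and 16. These bounds had been picked from a profile of these data. The relative change of intervals was -0.41, -0.37 and -0.41, and that of repeat loci outside the intervals -0.51 ± 0.04, -0.53 ± 0.01 and -0.56 ± 0.03 (SE). The rest of chromosome 11 stood at 0.18 and 0.06. On chromosome Y, 33 of 142 intervals were called lower and 5 higher, and its 91 loci had a relative change of -1.52 ± 0.18 (SE). The repeat loci of chromosome 6 had medians of -0.16 and -0.09 in ΔcIDR and 0.37 and 0.33 in KO, relative to the WT mean. The KO libraries were thus above WT there and the ΔcIDR libraries slightly below it. The other autosomes and X had relative changes of repeat loci between 0.01 and 0.13, while the intervals of X stood at -0.20. Chromosomes 6, 8, 11 and Y held 16.9% of tested intervals, 31.1% of lower calls and 9.86% of higher calls. Without them limma called 5421 intervals higher and 2843 lower, the ERVL change was -1.14 and the L1 change -0.43. The part of copy number in this was not tested.

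**Figure D5:**
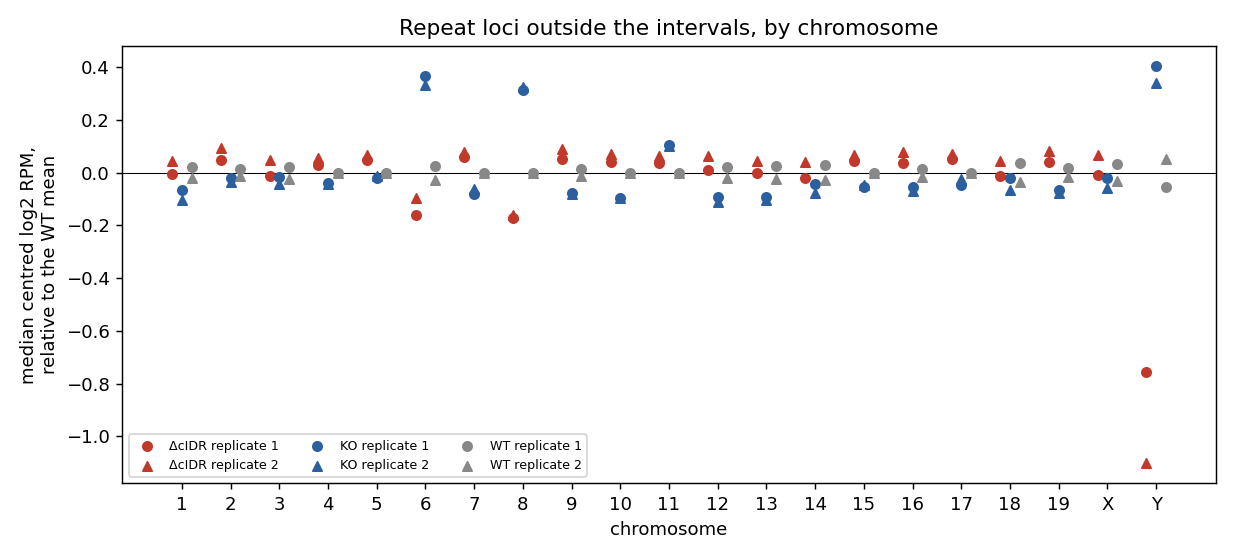
Median centred log2 RPM of repeat loci that overlap no interval (y axis), relative to the WT mean of each locus, by chromosome (x axis). Points are single libraries, with circles for replicate 1 and triangles for replicate 2. On chromosomes 6 and 8 both KO libraries (blue) lie above 0.3 and both ΔcIDR libraries (red) below -0.09, and on Y the ΔcIDR libraries are at -0.76 and -1.10.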

How the data were processed

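The deposited tables hold a read signal scaled to an m6A spike-in, per the file contents. Dividing each column by its smallest nonzero value gave whole reads within 1e-06 for all values, and 0 value columns had no sample. Per the submitters' processing notes, the tools were bedtools, featureCounts, MACS2, Picard, SAMtools, HISAT2 and fastp on GRCm39, with no versions given. How intervals were defined is not given in the sources used here. Spike-in entries were dropped from the tests. CPM had been assumed, and the tests kept their form on the signal.

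limma 3.58.1 (R 4.3.3) was run on log2(signal + 0.5), with 1 mean per group over 6 libraries and a variance trend, for a mean signal of at least 1, with and without centring. Folds on this scale understate changes near 0, and limma's errors borrow spread across features. edgeR 4.0.16 (quasi-likelihood) and DESeq2 1.42.0 were alternatives. Repeat loci used log2 RPM with 0.5 reads added, at a mean of at least 20 reads. An interval took a family covering at least 50% of it (bedtools 2.31.1). A relative change is the median centred difference of a list minus that of all tested intervals, and its SE comes from library medians. Only the centred limma fit of intervals and edgeR with TMM factors were tested on simulated reads. Those reads had few changed intervals and no shift of whole chromosomes, unlike these data. Other software was numpy 2.4.6, pandas 2.3.3, matplotlib 3.10.9 and Python 3.11.15.

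The comparison, lists and tests were chosen with earlier results of these data known. Named intervals are the 10 largest centred differences in each direction, the 5 largest signal differences in each direction and the 3 largest per list, among called intervals whose libraries do not overlap. A selection is given. Runs are the 8 longest in each direction. No fold is given where a group had 3 reads or fewer. ERVL and ERV1 copies were singled out after their values were seen. Gene lists, marker checks and sequences need a GRCm39 annotation and were not used here.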

Additional observations from a re-analysis of the deposited data

Results flagged for a closer look

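The unmodified spike-in RNA, which no comparison above uses except as a scale, had 5.65 times as many reads as the m6A-carrying spike-in in ΔcIDR (mean of 2 libraries), above the 2.74 in WT and the 2.3 in KO. It was picked out because both ΔcIDR libraries, at 6.30 and 4.99, lay above both WT libraries, at 3.91 and 1.56. The KO libraries stood at 3.16 and 1.43. The amounts added are not stated, the exact permutation p for 2 libraries against 2 cannot go below 0.333, and the part of this ratio in the deposited scale was not tested.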

How the results depend on the processing

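Counts of called intervals stayed within 1.5 times on the centred scale under each alternative except leaving out a library (4314 to 10894 of 10399), and included 8441 with the replicate block. On the deposited scale the count of 18438 became 9306 on the ERCC scale, 11008 on that of repeats outside the intervals, 5799 with no filter, 15176 with the replicate block and 8380 to 20686 without 1 library. Replicate gaps of ΔcIDR and KO correlated at -0.151, so a crossed replicate block was added after seeing the data, with 18437 deposited-scale and 14933 centred calls. Families on the deposited scale, 8 as reported, came to 5 outside the intervals, 0 with 4 libraries, 3 with the replicate block and 0 to 54 without 1 library, and centred families, 28 as reported, to 16 to 30 without 1 library, and to 36 over loci outside the intervals (4 higher and 32 lower, against 8 and 20). Calls at repeat loci came to 24693 at 50 reads or more, where fewer loci were tested, to 26083 without chromosomes 6, 8, 11 and Y, an alternative added after seeing the data, to 35708 with the replicate block and to 17803 to 42313 without 1 library. Total signal was -0.040 on the ERCC, -0.38 on the unmodified spike-in and 0.31 on the outside-repeat scale, and 0.75 to 1.29 without 1 library. The ERVL change was -0.88 with a pseudocount of 2 and -1.25 to -0.95 without 1 library, and the L1 change -0.56 to -0.23. Outside the intervals, Satellite/Y-chromosome was at -0.18, DNA/hAT-Ac at -0.19 and LINE/L1-Tx1 at -5.9e-05. Of 944 checks of 86 single intervals, 902 kept direction and call, 42 lost the call and 0 changed direction. Unless stated, the cause was not tested. Numbers were not shown to pair samples. Depth limits sites with few reads in a group, and 2 libraries limit every error.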
